A study of Mus musculus with 2 samples.

Results

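Mir137, Mir153, Mir488 and Mir383 are 4 microRNA genes known from neurons, and they were measured here in the midbrain of B6NCrl mouse embryos at embryonic day 12.5. Members were matched by gene symbol, in a choice made with earlier results of these data known, and all 4 of 4 were found among the 1973 microRNA genes in the deposited tables. The study holds 2 libraries of RNA below 30 nucleotides, labelled as biological replicates, and no second tissue, genotype or treatment. Replicate 1 came from the pooled midbrains of 120 embryos and replicate 2 from those of 88, both sexes mixed in each, so neither library gives the variation between single embryos. The values are reads on the gene's own strand, given as counts or as CPM, counts per 1000000 own-strand reads assigned to genes. Replicate 1 had 4629302 such reads and replicate 2 had 2805487.

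A microRNA gene is transcribed as a longer RNA, from which a hairpin is cut and then diced into a duplex of 2 arms, named 5p and 3p. One strand of the duplex guides an Argonaute protein to mRNAs that pair with its seed, bases 2 to 8, and those mRNAs are repressed. miR-137 is known in mouse neural stem cells and neurons for repressing the chromatin regulators Kdm1a and Ezh2 and the ubiquitin ligase Mib1, and for limiting dendrite growth. miR-153 is known for repressing alpha-synuclein, a presynaptic protein, together with miR-7. miR-488 and miR-383 are less studied in the brain and are described here chiefly through the genes in which they lie.

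The mature arms are shown because the seed decides which mRNAs each microRNA can pair with, and because near-identical arms of other genes could take or lend reads. RefSeq sequences on GRCm38.p6 were found for 3 of the 4 genes, Mir137, Mir153 and Mir488. Each is written 5′ to 3′ with the seed in capitals.
miR-137-5p: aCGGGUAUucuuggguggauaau
miR-137-3p: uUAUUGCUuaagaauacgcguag
miR-153-5p: gUCAUUUUugugacguugcagcu
miR-153-3p: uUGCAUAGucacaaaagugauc
miR-488-5p: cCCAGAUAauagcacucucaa
miR-488-3p: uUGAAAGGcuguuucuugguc
None of these 6 seeds was shared by another gene among the 1738 mature sequences of the table, so each of the 6 seeds belonged to 1 gene only.

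Only partial seed matches were found. miR-448-3p has the same 6 bases at positions 2 to 7 as miR-153-3p and differs at the last seed base, and miR-3071-5p holds 6 of the miR-153-5p seed bases shifted by 1 position.
miR-448-3p: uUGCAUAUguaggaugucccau
miR-3071-5p: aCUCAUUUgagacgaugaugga
Mir448, which lies in an intron of the serotonin receptor gene Htr2c, had 54.9 CPM in replicate 1 and 20.3 CPM in replicate 2. Mir3071 had 250.4 CPM in replicate 1 and 207.8 CPM in replicate 2. They were the only 2 quantified genes, those with at least 10 counts in both libraries, among the partial matches. The gene with a partial match to miR-137-3p, Mir7067, had 6 counts in replicate 1 and 4 in replicate 2, and no gene with a partial match to miR-488-3p was quantified.

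The hairpins are shown with both mature arms in capitals, since the tables count reads per hairpin and do not separate the arms.
Mir137: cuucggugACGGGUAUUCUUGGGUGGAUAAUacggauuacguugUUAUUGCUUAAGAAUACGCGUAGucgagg
Mir153: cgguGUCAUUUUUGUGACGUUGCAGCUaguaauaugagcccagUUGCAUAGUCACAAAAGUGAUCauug
Mir488: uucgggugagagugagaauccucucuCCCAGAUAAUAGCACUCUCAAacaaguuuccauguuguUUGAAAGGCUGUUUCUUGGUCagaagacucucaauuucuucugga
The arms were 13 bases apart in Mir137, 16 in Mir153 and 17 in Mir488. In the predicted fold of lowest energy, 20 of the 23 bases of miR-137-3p, 19 of the 22 bases of miR-153-3p and 17 of the 21 bases of miR-488-3p paired with the other arm. The predicted folding energy was -42.7 kcal/mol per 100 bases for Mir137 and -44.6 for Mir153, near the median of -43.5 over the 327 quantified genes with a RefSeq hairpin. Mir488, with the longest of the 3 hairpins at 109 bases, had -35.5, a less stable fold than 88.1% of those hairpins. GC content was 45.2% in Mir137, 42.0% in Mir153 and 42.2% in Mir488, against a median of 50.5%. None of the 3 hairpins shared a run of 20 bases, or of 16 bases, with another hairpin in the table. Reads from these 3 hairpins therefore had no annotated copy of that kind to align to.

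Each gene lay inside a longer gene on the same strand, by GENCODE M21, whose GRCm38 coordinates are those of mm10. Mir137 (ENSMUSG00000065569.1, chr3:118433857-118433929, plus strand) lay in the non-coding gene Gm26871, 3.5 kb from its start, which is 3.5% of the way along its 99.7 kb. It overlapped an exon of 3 of the 6 annotated Gm26871 transcripts, and in 2 of those the whole hairpin was exonic. The other 3 members lay in introns of protein-coding genes. Mir153 (ENSMUSG00000065538.1, chr12:117250817-117250885, plus strand) lay in intron 19 of 22 of Ptprn2, whose protein belongs to the membrane of dense-core secretory vesicles in neuroendocrine cells and neurons. Its hairpin stood 765.1 kb from the start of that 791.1 kb gene, at 96.7% of its length. Mir488 (ENSMUSG00000070103.2, chr1:158505625-158505733, plus strand) lay in intron 5 of Astn1, which encodes astrotactin, a protein used by young neurons to migrate along glia. It stood at 43.5% of a gene of 329.5 kb. Mir383 (ENSMUSG00000065457.2, chr8:38252133-38252202, minus strand) lay in intron 1 of Sgcz, which encodes a sarcoglycan, a family of membrane proteins linked to dystrophin. That intron spanned 707.7 kb of a gene of 1139.2 kb. The host mRNAs themselves are outside these microRNA tables, so host and microRNA levels are not compared.

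**Figure D1:**
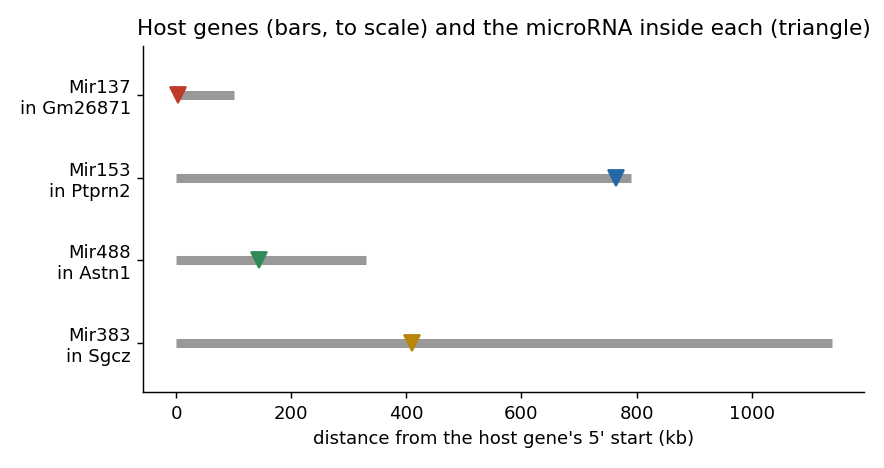
Distance in kb from the 5′ start of each host gene (grey bar, drawn to its length) to the microRNA gene inside it (triangle). Mir137 sits 3.5 kb from the start of Gm26871, while Mir153 sits 765.1 kb into Ptprn2, close to its end.

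The members were alone in their hosts, with 1 exception. The microRNA gene Gm24155 lies 0.79 kb downstream of Mir137 on the same strand (chr3:118434721-118434830) and had 0 counts on either strand in both libraries. A count of 0 allows a level of up to 0.648 CPM in replicate 1 and 1.07 CPM in replicate 2, the values of 3 counts. No other counted microRNA gene lay within 50 kb of a member or in the same host. Mir153 and Mir488 also lie within introns of antisense non-coding genes, Gm5441 and Gm37679, on the opposite strand. All 4 members had 0 opposite-strand reads in both libraries, as did 338 of the 380 quantified genes.

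Mir137 and Mir153 were abundant and close in level, and Mir488 and Mir383 were lower by more than an order of magnitude. Mir137 had 19557 counts in replicate 1 and 9998 in replicate 2. In CPM this was 4225 (95% Wilson interval 4166 to 4284) in replicate 1 and 3564 (3495 to 3634) in replicate 2. Its mean of 3894 ± 467 CPM (SD, n = 2) ranked 57 among all genes, and replicate 1 was the higher library.

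Mir153 had 16257 counts in replicate 1 and 9220 in replicate 2. Its level was 3512 CPM (3458 to 3566) in replicate 1 and 3286 CPM (3220 to 3354) in replicate 2. Its mean of 3399 ± 159 CPM (SD, n = 2) ranked 58, directly after Mir137.

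Mir488 had 623 counts in replicate 1 and 335 in replicate 2. Its level was 134.6 CPM (124.4 to 145.6) in replicate 1 and 119.4 CPM (107.3 to 132.9) in replicate 2. The mean was 127 ± 10.7 CPM (SD, n = 2), at rank 205, and the 2 intervals overlapped.

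Mir383 had 370 counts in replicate 1 and 272 in replicate 2. Its level was 79.9 CPM (72.2 to 88.5) in replicate 1 and 97.0 CPM (86.1 to 109.2) in replicate 2, and it was the only member that was higher in replicate 2. Its mean of 88.4 ± 12.0 CPM (SD, n = 2) ranked 228. In whole-tissue RNA, fewer cells with a microRNA and less of it per cell cannot be told apart, so these levels do not show which midbrain cells held the 4 microRNAs.

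**Figure D2:**
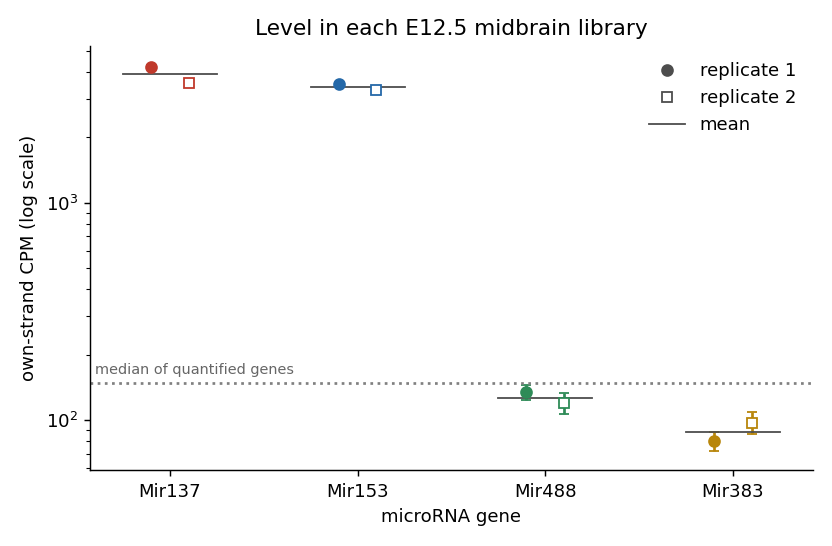
Own-strand CPM on a log scale for each gene in replicate 1 (filled circles) and replicate 2 (open squares), with 95% Wilson intervals, which cover counting error only, and the mean as a line. Mir137 and Mir153 stand between 3286 and 4225 CPM, and Mir488 and Mir383 stand between 79.9 and 134.6 CPM, below the dotted median of quantified genes at 147.7 CPM.

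Ratios inside a library do not depend on how libraries are scaled. Mir137 over Mir153 was 1.20 (exact 95% Clopper-Pearson interval 1.18 to 1.23) in replicate 1 and 1.08 (1.05 to 1.12) in replicate 2, so Mir137 was the higher gene in both. The level ranges of the pair did not overlap, with a lowest Mir137 value of 3564 CPM and a highest Mir153 value of 3512 CPM. That gap depended on scaling: with DESeq2 size factors the lowest Mir137 value was 3520 CPM and the highest Mir153 value 3555 CPM. Whether the level ranges of the pair overlap thus depends on the scaling, while the ratio inside each library does not. Mir153 over Mir488 was 26.1 (24.1 to 28.3) in replicate 1 and 27.5 (24.7 to 30.8) in replicate 2, the wide step of the order.

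Mir488 over Mir383 was 1.68 (1.48 to 1.92) in replicate 1 and 1.23 (1.05 to 1.45) in replicate 2. Mir488 was the higher gene in both libraries, its lowest level of 119.4 CPM lay above the highest Mir383 level of 97.0 CPM, and this held with TMM and DESeq2 factors. The size of the ratio differed between the libraries by more than these counting intervals. Sequences differ in how well they are ligated and amplified in small RNA libraries, which was not tested here and bears on every comparison of levels between genes. Levels are not divided by hairpin length, because the libraries were selected for RNA below 30 nucleotides, the size class of mature microRNAs. Whether each read was a mature arm was not tested, since the counts are per hairpin.

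Together the 4 genes held 0.795% of assigned reads in replicate 1 and 0.707% in replicate 2, or 7509 ± 625 CPM (SD, n = 2). Mir137 and Mir153 supplied 97.3% of those reads in replicate 1 and 96.9% in replicate 2. Mir99a, the most abundant gene of the libraries, stood 36.7 times above Mir137.

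The members fell in different parts of the abundance range. Among the 380 quantified genes the median level was 147.7 CPM, which Mir137 exceeded 26.4 times and Mir153 23.0 times. Mir488 stood at 0.860 times and Mir383 at 0.599 times that median. Among the 143 quantified genes in introns of protein-coding hosts, whose median was 114.1 CPM, Mir153 ranked 21, Mir488 67 and Mir383 76. Among the 102 that overlapped an exon, with a median of 126.5 CPM, Mir137 ranked 19. Intronic position in a protein-coding gene thus went with levels that differed 38.4-fold between Mir153 and Mir383.

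**Figure D3:**
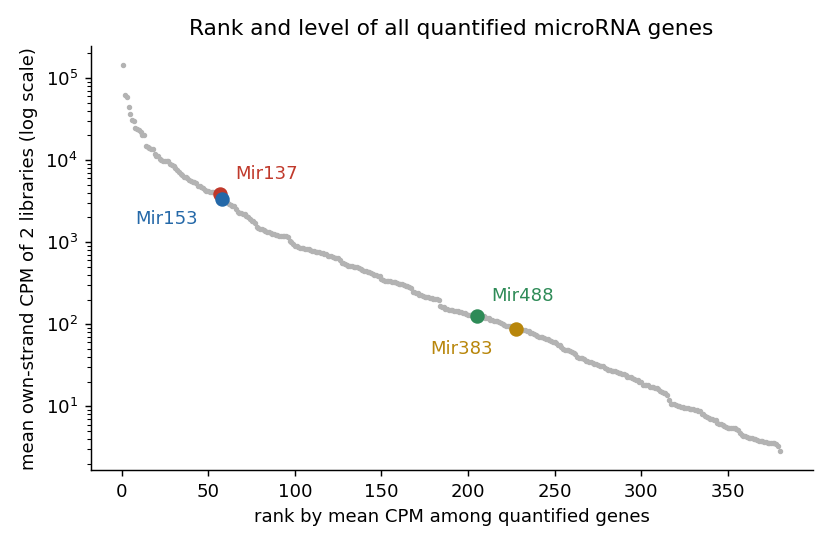
Mean own-strand CPM (log scale) against rank for the 380 quantified genes (grey points), with the 4 genes coloured. Mir137 and Mir153 hold the adjacent ranks 57 and 58, and Mir488 and Mir383 hold ranks 205 and 228.

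Mir137 and Mir153 were higher in replicate 1 and Mir383 was lower there, while Mir488 did not pass the test. The libraries were set against each other by Fisher's exact test (two-sided) on each gene's reads, with Benjamini-Hochberg adjustment over all 380 quantified genes at 0.05. The test sets these libraries against counting noise and tests no condition. A positive log2 ratio means higher in replicate 1, and each ratio is given with its counting SE. Mir137 had a log2 ratio of 0.25 ± 0.02 (adjusted exact p = 1.45e-43) and Mir153 one of 0.10 ± 0.02 (adjusted exact p = 9.37e-07). Both were higher in replicate 1, by 1.19-fold and 1.07-fold. Mir488 had 0.17 ± 0.10 (adjusted exact p = 0.128) and was not called, with a 95% counting interval of -0.02 to 0.36 on the log2 scale. Mir383 had -0.28 ± 0.12 (adjusted exact p = 0.0316), lower in replicate 1. Its adjusted exact p rose to 0.0696 with DESeq2 size factors and to 0.059 with no filter on low counts, so its call rests on the processing.

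Of the 4 members, 3 were called in either direction, where the share over all quantified genes was 54.2%. Higher in replicate 1 were 2 members, where that share was 27.1%, and lower was 1, where it was also 27.1%. With 4 genes these counts stand near the background, and calls were more frequent at higher levels. Among the 76 genes from 1000 to 10000 CPM, where Mir137 and Mir153 lie, 84.2% were called, and among the 119 genes from 50 to 500 CPM, where Mir488 and Mir383 lie, 60.5% were.

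In size, the members' differences lay in the middle of the range of all genes. The median absolute log2 ratio over quantified genes was 0.24, just below the values of Mir137 and Mir383 and above those of Mir153 and Mir488. Of the quantified genes, 21.3% had a smaller absolute ratio than Mir153, 37.1% than Mir488, 51.6% than Mir137 and 58.2% than Mir383. The coefficient of variation was 12.0% for Mir137, 4.69% for Mir153, 8.45% for Mir488 and 13.6% for Mir383, against a median of 11.5%. The median log2 ratio of the 4 members was 0.13, beside -0.04 over all quantified genes.

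**Figure D4:**
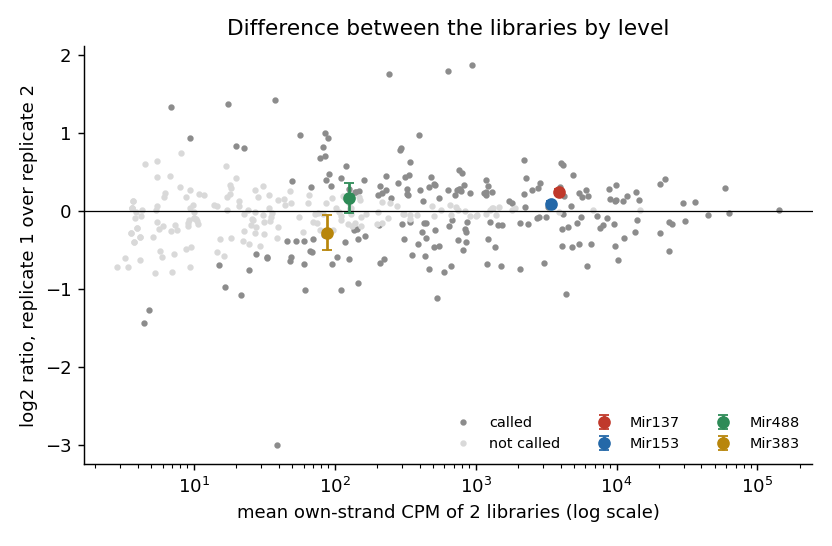
Log2 ratio, replicate 1 over replicate 2, against mean own-strand CPM (log scale) for the 380 quantified genes, dark grey where called and light grey where not, with 95% counting intervals on the coloured members. Mir137 and Mir153 have short intervals above 0, Mir488 has one that crosses 0, and Mir383 lies below 0.

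Markers of other cell types also differed between the libraries, where 54.2% of all quantified genes were called, 27.1% in each direction. The 5 choroid plexus microRNAs summed to 2504 CPM in replicate 1 and 704 CPM in replicate 2, led by Mir449a, and of the 3 quantified 2 were called higher in replicate 1 and 1 was not called. The 7 mesenchymal and mural microRNAs, led by Mir143, summed to 15707 CPM in replicate 1 and 23591 CPM in replicate 2, with 6 called lower in replicate 1. The 7 epithelial microRNAs, led by Mir203, summed to 2764 CPM in replicate 1 and 3549 CPM in replicate 2, and 6 were called lower in replicate 1. The 6 Hox cluster microRNAs, which mark hindbrain and trunk rather than midbrain, summed to 225.3 CPM in replicate 1 and 418.8 CPM in replicate 2, led by Mir10a, with Mir196a-1 at 0 in both libraries and the 4 quantified called lower in replicate 1. All 4 leukocyte microRNAs found, led by Mir223, summed to 607.4 CPM in replicate 1 and 768.9 CPM in replicate 2, with 1 called higher in replicate 1 and 3 called lower. The 3 erythroid microRNAs, led by Mir451a, summed to 412.8 CPM in replicate 1 and 271.3 CPM in replicate 2. Of these, Mir451a was called higher in replicate 1, 1 was called lower and 1 was not called, with a median log2 ratio of -0.20, opposite in sign to the sums. Endothelial Mir126a had 23434 CPM in replicate 1 and 26243 CPM in replicate 2, and was called lower in replicate 1. Apart from Mir196a-1, every marker found had counts in both libraries. The part of these cell types in the members' differences was not tested.

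Other brain-enriched microRNAs give the members a scale. Of 36 genes on that list, 33 were found by symbol, 30 were quantified, and they summed to 25549 CPM in replicate 1 and 25702 CPM in replicate 2. That was 3.21 times the members' sum in replicate 1 and 3.64 times in replicate 2. Set among these 33 genes, Mir137 ranked 3 and Mir153 ranked 4 of 37, below Mir135b at 9027 ± 696 CPM and Mir382 at 4178 ± 83.3 CPM (SD, n = 2). Mir382 lies in the imprinted Dlk1-Dio3 region. Mir219a-2 followed at 3042 ± 971 CPM and Mir323 at 1401 ± 30.4 CPM. Mir488 ranked 22, between Mir132 at 205.1 CPM and Mir346 at 126.6 CPM, and Mir383 ranked 26, between Mir338 at 94.96 CPM and Mir218-2 at 59.9 CPM.

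Some genes of this list have near copies. Of the 33 other genes, 16 shared a run of 20 bases with another hairpin, and reads that align to several places were assigned to no gene. Those 16 had a median of 218.8 CPM, against 339.7 CPM for the 13 that shared none, and 4 had no hairpin in the sequence table. The part of shared runs in these levels was not tested. With the 16 left out, Mir137 and Mir153 ranked 3 and 4 of 21, and Mir488 and Mir383 ranked 12 and 15. These ranks do not test the effect of shared runs. Leaving genes out cannot lower a rank, and it restores no reads lost from copies. Mir135b and Mir382, which rank above Mir137, share no run and stayed in, as did the genes with no hairpin in the sequence table. The latter were Mir598 and the copies Mir124a-1, Mir124a-2 and Mir124a-3, at means of 3.56, 14.6 and 5.37 CPM. They were not tested for shared runs, so the 21 are not known to be free of copies. Between the libraries, 8 of the 30 quantified genes were higher in replicate 1, 7 were lower and 15 were not called, with a median log2 ratio of 0.06. Over all quantified genes the share called was 27.1% in each direction. The copies found of Mir9, Mir124a and Mir128, neural markers on this list, went both ways. Mir9-3 was called higher in replicate 1 (log2 ratio 0.36), and Mir128-1 (-0.61) and Mir128-2 (-0.68) were called lower. Mir124a-2 and Mir124a-3 were not called, and Mir9-2 and Mir124a-1 were not quantified.

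**Figure D5:**
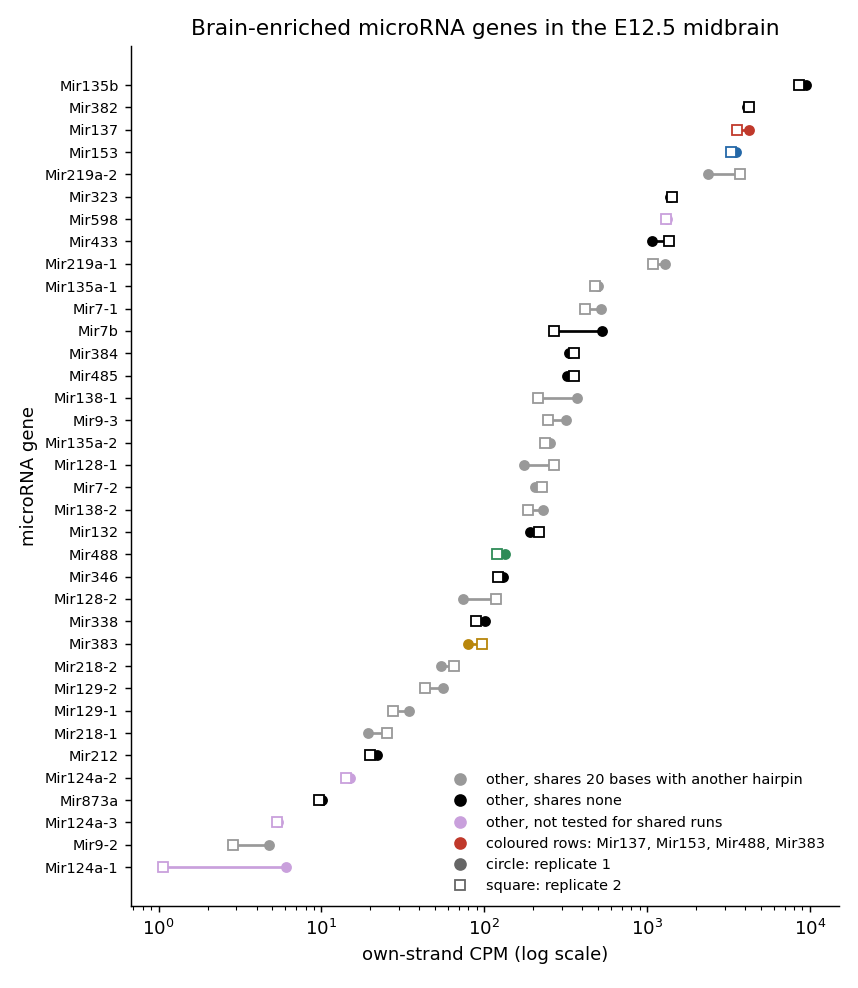
Own-strand CPM (log scale) of the 4 coloured genes and of the other brain-enriched microRNA genes with counts, in replicate 1 (filled circles) and replicate 2 (open squares) joined by a line. Grey genes share 20 bases with another hairpin, black ones share none and lilac ones were not tested for shared runs. Mir137 and Mir153 rank 3 and 4, below Mir135b and Mir382.

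A second list, which overlaps the brain-enriched one in genes such as Mir598 and Mir346, was drawn up for microRNAs placed in genes used by neurons. Of its 17 genes found, 16 were quantified, Mir149 in Gpc1 being highest at 13962 ± 780 CPM (SD, n = 2). Mir139 in Pde2a followed at 2737 ± 119 CPM, Mir598 in Xkr6 at 1319 ± 22.5 CPM and Mir330 at 508 ± 87.2 CPM. By the annotation, Mir330 overlaps an exon of Eml2 and Mir190b is intergenic, so the list is not intronic throughout. Mir153 would stand second here, above Mir139. Mir488, at 127 CPM, stands near Mir346 at 126.6 CPM, which lies in the glutamate receptor gene Grid1, and Mir383 stands lower at 88.4 CPM. In this list 5 genes were higher in replicate 1, 4 lower and 7 not called, with a median log2 ratio of 0.09. The share over all quantified genes was 27.1% in each direction. All microRNAs of Htr2c on the list were among those higher, Mir448 with a log2 ratio of 1.43 ± 0.21 (counting SE), Mir1298 with 1.76 and Mir1264 with 1.38. Of the choroid plexus markers, Mir449a (1.88) and Mir204 (1.80) were also higher, while Mir211 (-0.11) was not called. Which cells the Htr2c microRNAs came from was not tested, so these calls are not a result about neurons.

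As a sum, the microRNA genes of a list for progenitors and proliferation far exceeded the members. Which cells of the tissue made these microRNAs was not tested. Their sum, over 14 genes led by Mir17 of the Mir17hg cluster at 59214 ± 8579 CPM (SD, n = 2), was 19.97 times the members' sum in replicate 1 and 20.13 times in replicate 2. The list was uneven, with a median of 1106 CPM, below Mir137 and Mir153. Besides the Mir17hg and Mcm7 clusters and Mir92b it holds the Mir302 genes and Mir367. That median fell between Mir302a and Mir302d, and Mir367 was the lowest gene at 1.22 CPM. Of the 13 quantified, 5 were higher in replicate 1, 4 lower and 4 not called, beside 27.1% of all quantified genes in each direction.

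For each member the 2 most similar quantified genes were found by the distance of log2 CPM over both libraries, a measure of likeness in level over 2 samples only. Mir137 was nearest to Mir301, with 4364 CPM in replicate 1 and 3515 CPM in replicate 2 (distance 0.05), and then to Mir324 (0.16). Mir153 was nearest to Mir16-1, with 3321 CPM in replicate 1 and 3204 CPM in replicate 2 (0.09), and then to Mir351 (0.20). Mir488 was nearest to Mir302c, with 135.4 CPM in replicate 1 and 122.6 CPM in replicate 2 (0.04), and then to Mir346 (0.05). Mir383 was nearest to Mir29a, with 80.4 CPM in replicate 1 and 97.3 CPM in replicate 2 (0.01), and then to Mir152 (0.11). No member was among the nearest genes of another.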

How the data were processed

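Small RNA from E12.5 mouse midbrain was sequenced in 2 libraries, labelled biological replicates 1 and 2. The deposited tables hold raw counts of reads per microRNA gene on either, the own and the opposite strand. Per the deposited read-me files, they derive from alignments to mm10 with annotation M4; aligner and counter: not given in the sources used here. Rows that name no gene, 56.9% of reads in replicate 1 and 58.2% in replicate 2, stayed out of totals and tests, and 33.4% in each aligned to several places. A floor of 3 counts was 0.648 CPM in replicate 1 and 1.07 CPM in replicate 2. Intervals and floors cover counting error only.

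Own-strand counts were used, which were 97.6% of both strands' reads in replicate 1 and 97.5% in replicate 2. Symbols were found for 1894 of 1973 genes in GENCODE M21. CPM, Wilson and Clopper-Pearson intervals and Fisher's exact tests with Benjamini-Hochberg adjustment were computed with SciPy 1.17.1. Tests covered genes that reached 10 counts in each library. On simulated counts holding counting noise only, the test called 3.2% of 188 genes given no difference. That check cannot show how the test behaves where libraries vary by more than counting noise. edgeR 4.0.16 gave TMM factors and DESeq2 1.42.0 size factors as alternatives, and RNAfold 2.7.2 gave folds. With 1 group, no test between conditions was possible. Named genes are the members, microRNA genes in a host or within 50 kb, seed relatives, the 2 nearest genes in level and the most abundant genes of each list (up to 4 for the 2 neuronal lists). Mir132, Mir338, Mir218-2, Mir7067, Mir190b and Mir196a-1 were named after their values were seen. So were Mir1298, Mir1264, Mir204, Mir211, Mir367 and the copies of Mir9, Mir124a, Mir128 and Mir302, apart from Mir302c. The members and lists were chosen with earlier results of these data known.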

Additional observations from a re-analysis of the deposited data

How the results depend on the processing

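Leaving Mir99a out of the total raised every level: Mir137 to 4545 CPM, Mir153 to 3967 CPM, Mir488 to 148.2 CPM, Mir383 to 103.2 CPM and their sum to 8762 CPM, which follows from the smaller total. The log2 ratio of Mir383 lost its call with DESeq2 size factors (-0.24) and with no filter on low counts (-0.28). Over the 4 members, the counts of either strand, TMM factors and a minimum of 50 counts changed no direction or call. In all, 62 of 69 alternative values were rated the same. For levels and for ratios between members this meant a shift below the SD of the 2 libraries. Leaving out 1 library cannot exceed that SD, so it could not count as a change in size. Ratios between members could not change with the counts of either strand, since no member had opposite-strand reads. A count filter leaves each log2 ratio as it was, so it could change a call but not a direction. For differences between the libraries only direction and call were rated, and size was not. The number of genes called between the libraries stayed between 199 and 214, but the number tested did not: 199 of 746 were called with no filter and 200 of 300 with a minimum of 50 counts, beside 206 of 380 as reported, so the background share depends on the filter. With either library left out, levels were those of the other library. No paired analysis was possible because both libraries belong to 1 group. Depth limits Mir488 and Mir383 most, with counting SEs of 0.10 and 0.12 on the log2 scale.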
